A study of Rattus norvegicus with 30 samples.

Results

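Activin, inhibin and follistatin genes were followed in bulk RNA sequencing of rat testes maturing in vivo and of prepubertal testicular explants maturing in culture. The set comprised 9 of the 17322 genes quantified and was chosen by name: the subunit genes Inha (Entrez identifier 24504), Inhba (29200) and Inhbb (25196), the binder genes Fst (24373) and Fstl3 (114031), and the receptor genes Acvr1b (29381), Acvr2a (29263), Acvr2b (25366) and Tgfbr3 (29610). All testes came from Wistar Han rats, and the labels name no transgene and no treatment other than culture. In vivo controls were collected at 6 ages in days postpartum (dpp), namely 8.5 and 14.5 dpp, 24.5 and 30.5 dpp, 36.5 dpp, and 53.5 dpp, and 8.5 dpp testes cut into 6 fragments were kept on agarose at the gas-liquid interphase for 6 (D6), 16 (D16), 22 (D22) or 28 days (D28) in medium with serum replacement, retinol and vitamin E. Counted from birth, D6 therefore matches the 14.5 dpp testes, D16 those of 24.5 dpp, D22 those of 30.5 dpp and D28 those of 36.5 dpp.

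Each group had 3 libraries, except that 14.5 dpp had 2 usable ones, because a further 14.5 dpp library labelled an outlier was listed at 0 for every gene. An in vivo library came from 1 testis and a cultured library from several explants pooled, so the spread between cultured libraries is that of pools, and the explants develop a necrotic centre, which per the study's methods was taken out before tissue was frozen for molecular work. Values were FPKM, fragments normalised to transcript length and to the mapped reads of the library, so levels can be set side by side between genes, but the sequencing depth behind each value is unknown. Of the 29 libraries used, each had between 12520 and 13563 genes above 0, and replicates correlated at 0.965 to 0.985 across genes on the log2(FPKM + 1) scale.

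Inhibin and activin are dimers built from shared subunits. An α subunit, encoded by Inha, paired with a β subunit, encoded by Inhba or Inhbb, gives inhibin, which the Sertoli cell secretes and which restrains FSH release from the pituitary; a pair of β subunits gives activin, which signals through a type 2 receptor (Acvr2a, Acvr2b) and a type 1 receptor (Acvr1b) to SMAD2 and SMAD3. Follistatin (Fst) and follistatin-like 3 (Fstl3) bind activin and keep it from its receptors, and betaglycan (Tgfbr3) is a co-receptor that lets inhibin occupy the type 2 receptors. In the immature testis activin A is known for its part in the proliferation of Sertoli cells and early germ cells, and Inha transcription is known to respond to FSH through cyclic AMP.

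Inha and Fstl3 were the most abundant subunit and binder transcripts in the explants, and the 250 bases before their annotated starts are shown for that reason. The sequences are RefSeq promoters of the GRCr8 assembly, which is not the build the authors mapped to, and 8 of the 9 genes matched an entry. Capitals mark every match, on either strand, to the motifs TGACGTCA (cyclic AMP response element), TGCGTCA (a variant of it), AGGTCA (bound by nuclear receptors such as SF-1), AGATA (GATA factors), GGGCGG (GC box) and GTCTAGAC (SMAD palindrome).
Inha, chr9:84442859-84443108, plus strand: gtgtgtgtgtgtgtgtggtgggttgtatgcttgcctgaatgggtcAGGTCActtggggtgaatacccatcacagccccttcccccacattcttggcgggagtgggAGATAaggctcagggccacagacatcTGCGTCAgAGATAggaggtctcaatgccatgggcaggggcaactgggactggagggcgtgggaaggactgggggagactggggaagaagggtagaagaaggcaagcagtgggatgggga
Fstl3, chr7:10579845-10580094, minus strand: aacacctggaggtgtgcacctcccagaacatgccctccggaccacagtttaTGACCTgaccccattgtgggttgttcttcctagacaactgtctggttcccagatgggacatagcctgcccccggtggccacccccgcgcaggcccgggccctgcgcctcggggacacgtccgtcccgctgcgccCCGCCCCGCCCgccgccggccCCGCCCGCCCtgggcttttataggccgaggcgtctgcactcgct

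Counting from -1 at the last base before the annotated start, the Inha window held TGCGTCA at -119 to -113, AGGTCA at -205 to -200 and AGATA at -145 to -141 and -111 to -107. The Fstl3 window held AGGTCA on the reverse strand at -199 to -194 and 4 GC boxes on the reverse strand, in overlapping pairs, between -65 and -35. Among the same 250 bases of 33469 promoters, TGCGTCA was present in 1.66%, TGACGTCA in 1.59%, AGGTCA in 14.1%, AGATA in 27.8%, GGGCGG in 30.5% and GTCTAGAC in 0.173%. GC content was 58.4% for Inha and 68.8% for Fstl3, against a median of 51.2% over all promoters. These are letter matches only.

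To place the 9 genes in the maturation of the testis, the 6 in vivo ages were compared first. A gene was called when its Benjamini-Hochberg adjusted p in limma was at most 0.05 over all genes tested and the ratio of group medians was at least 2. Over the 6 ages, 8 of the 9 genes were called by the F test, beside 90.2% of the 12531 genes tested, so that a change with age is the rule here and not a property of the set. Acvr2a was not called (adjusted p = 0.00444, with a ratio of 1.93 between its highest and lowest medians). From 8.5 to 36.5 dpp, 6 genes fell (Inha, Inhba, Inhbb, Fst, Fstl3 and Acvr2b) and none rose, beside 43.4% of all genes called lower, 25.3% called higher and 68.7% called in all. The median log2 difference was -2.08 over the 9 genes and -0.50 over all genes tested.

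Inha was the most abundant of the 9 transcripts at every age. It measured 721, 752 and 814 FPKM at 8.5 dpp, 547 and 590 at 14.5 dpp, and 359, 305 and 280 at 24.5 dpp. It measured 139, 108 and 131 FPKM at 30.5 dpp, 95.1, 97.7 and 92.0 at 36.5 dpp, and 46.9, 40.4 and 54.4 at 53.5 dpp. Every age lay below the one before it with no overlap between libraries. The step from 8.5 to 14.5 dpp passed the test (log2 difference -0.42, SE 0.14, limma adjusted p = 0.0289) but depended on the processing. After quantile normalization of the libraries it was -0.004 (limma adjusted p = 0.988). It did not pass without the second or the third 8.5 dpp library (limma adjusted p = 0.056 and 0.0872). The difference between 36.5 and 8.5 dpp was -2.99 on the log2(FPKM + 1) scale (SE 0.13, limma adjusted p = 1.7e-11), an 8.03-fold lower mean.

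Inhbb, the βB subunit of activin B and inhibin B, followed the same course at a lower level. Its FPKM values were 294, 277 and 280 at 8.5 dpp, 211 and 138 at 14.5 dpp, and 65.6, 62.9 and 82.5 at 24.5 dpp. They were 26.6, 23.5 and 27.3 FPKM at 30.5 dpp, 19.3, 19.0 and 18.0 at 36.5 dpp, and 11.8, 8.89 and 9.08 at 53.5 dpp. No neighbouring ages overlapped, and the mean at 36.5 dpp was 15.1-fold lower than at 8.5 dpp (log2 difference -3.85, SE 0.15, limma adjusted p = 7.65e-12). The step from 8.5 to 14.5 dpp (-0.73, SE 0.17, limma adjusted p = 0.00357) did not pass after quantile normalization (-0.489, limma adjusted p = 0.0545).

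Inhba, the βA subunit of activin A and inhibin A, was far less abundant and fell early. It measured 17, 17 and 20.8 FPKM at 8.5 dpp and 7.45 and 3.16 at 14.5 dpp (log2 difference -1.69, SE 0.31, limma adjusted p = 0.000703). At 24.5 dpp it measured 0.221, 0.192 and 1.68 FPKM, so that 1 testis stood far above both others of that age. From 30.5 to 53.5 dpp its 9 libraries lay between 0.121 and 0.545 FPKM. Transcripts of βB thus exceeded those of βA at every age, with a mean ratio of Inhbb to Inhba of 15.7 ± 1.98 (SD, n = 3) at 8.5 dpp and 224 ± 152 (SD, n = 3) at 24.5 dpp.

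Fst showed the steepest early fall of the set. Its 8.5 dpp libraries held 5.98, 6.08 and 7.97 FPKM and its 14.5 dpp libraries 0.530 and 0.296 (log2 difference -2.44, SE 0.12, limma adjusted p = 5.98e-09), a 16.2-fold lower mean. All 12 libraries from 24.5 to 53.5 dpp lay between 0.0601 and 0.305 FPKM. In the in vivo fit Fst passed the filter on low values (a median of at least 0.5 FPKM in some group) only through the 8.5 dpp group.

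Fstl3 kept its level longer. It measured 28.6, 26.7 and 37.2 FPKM at 8.5 dpp, 33.5 and 41.8 at 14.5 dpp, and 25.8, 33.9 and 41.4 at 24.5 dpp, and these 3 ages overlapped. Its values then were 12.2, 10.1 and 11.4 FPKM at 30.5 dpp (log2 difference from 24.5 dpp -1.48, SE 0.26, limma adjusted p = 0.000186), 3.59, 11 and 6.49 at 36.5 dpp, and 6.20, 6.14 and 6.07 at 53.5 dpp. The 36.5 dpp libraries spanned the values of both neighbouring ages, with a coefficient of variation of 53.3%.

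From 8.5 to 36.5 dpp, Acvr2b was the only receptor called (log2 difference -0.61, SE 0.11, limma adjusted p = 8.77e-05). Its mean was 5.17-fold lower, since a gene near or under 1 FPKM moves little on the log2(FPKM + 1) scale. Acvr1b differed by -0.62, Acvr2a by 0.48 and Tgfbr3 by -0.35, all under 2-fold. Acvr1b, the type 1 activin receptor ALK4, had means of 12.9 ± 0.522 FPKM at 8.5 dpp, 17.8 ± 1.28 at 24.5 dpp, 8.12 ± 1.65 at 36.5 dpp and 5.74 ± 0.429 at 53.5 dpp (SD, n = 3). Acvr2a, the more abundant type 2 receptor, lay between 3.27 and 7.25 FPKM in all 17 in vivo libraries. Acvr2b, the other type 2 receptor, had medians of 0.847, 1.11 and 0.805 FPKM in the 3 youngest groups and 0.157 and 0.111 at 30.5 and 36.5 dpp, and was listed at 0 in 2 of the 3 libraries at 53.5 dpp. Acvr2b fell between 24.5 and 30.5 dpp (log2 difference -0.59, SE 0.11, limma adjusted p = 0.000211). Tgfbr3 had means of 6.68 ± 0.285 FPKM at 8.5 dpp, 2.94 ± 0.639 at 24.5 dpp and 5.06 ± 0.575 at 36.5 dpp (SD, n = 3).

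Between neighbouring ages, Inhba and Fst fell from 8.5 to 14.5 dpp, 2 genes of the set beside 14.7% of all genes. Inhba, Inhbb and Fst fell from 14.5 to 24.5 dpp, beside 35.6%, and Inha, Inhbb, Fstl3 and Acvr2b from 24.5 to 30.5 dpp, beside 37.6%. No member was called from 30.5 to 36.5 dpp by limma, beside 7.49% of all genes, although 4 had an unadjusted p under 0.05 and 3 of these (Inha, Inhbb and Acvr1b) an adjusted p within the threshold. Inha and Inhbb lost it without any 1 of the 36.5 dpp libraries or without either the first or the third 30.5 dpp library, and Acvr1b without the third 36.5 dpp library or those same 30.5 dpp libraries. Inha and Inhbb fell from 36.5 to 53.5 dpp, beside 6.54%, with mean levels 2.01-fold and 1.89-fold lower. Both of these ratios are near the threshold of 2, and neither gene was called after quantile normalization of the libraries or without the second 53.5 dpp library. Only 1 of the pair was called without the second 36.5 dpp library, and likewise without the third 53.5 dpp library. The Fst call from 14.5 to 24.5 dpp was lost without the first 14.5 dpp library (log2 difference -0.18, adjusted p = 0.295) or without any single 24.5 dpp library.

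In bulk tissue, fewer cells of a type and less RNA per cell cannot be told apart, and the make-up of these testes changed over the same ages. The 5 spermatid markers summed to 14.3 FPKM at 8.5 dpp, 3670 at 36.5 dpp and 14900 at 53.5 dpp. The 5 spermatocyte markers summed to 3.59 FPKM at 8.5 dpp and 772 at 24.5 dpp. The means of the Sertoli cell genes Sox9, Wt1 and Gata4 were 36.5, 109 and 261 FPKM at 8.5 dpp and 4.63, 15.2 and 13.8 at 36.5 dpp. Gata1, a further marker on the list of 12 for Sertoli cells, was listed at 0 in all groups. The summed level of that list was 967 FPKM at 8.5 dpp, 2540 at 24.5 dpp, 666 at 36.5 dpp and 487 at 53.5 dpp. Between 8.5 and 36.5 dpp, Clu rose from 168 to 441 FPKM, Shbg from 23.3 to 56.1 and Tf from 6.24 to 39.3. The means of Fshr, Amh, Cldn11, Rhox5 and Ctsl were lower at 36.5 dpp.

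The subunit levels were therefore also expressed relative to Sox9, Wt1 and Gata4, by subtracting the mean log2(FPKM + 1) of these 3 genes in the same library. This Sertoli scale moves the median difference over all genes between 36.5 and 8.5 dpp from -0.50 to 2.71, and it can be read for the abundant members only, since a member near or under 1 FPKM has little room to fall on the log2(FPKM + 1) scale. On it, Inha did not pass the test between 36.5 and 8.5 dpp (0.22, SE 0.17, limma adjusted p = 0.214), Inhbb was still lower (-0.63, SE 0.16, adjusted p = 0.00138) and Fstl3 was higher (1.13, SE 0.29, adjusted p = 0.00143). The directions of Inha and Fstl3 thus depend on whether levels are set against all RNA or against these 3 genes. The fall of these 3 genes was steeper than that of the summed list of Sertoli cell markers, against which the members were not set.

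**Figure D1:**
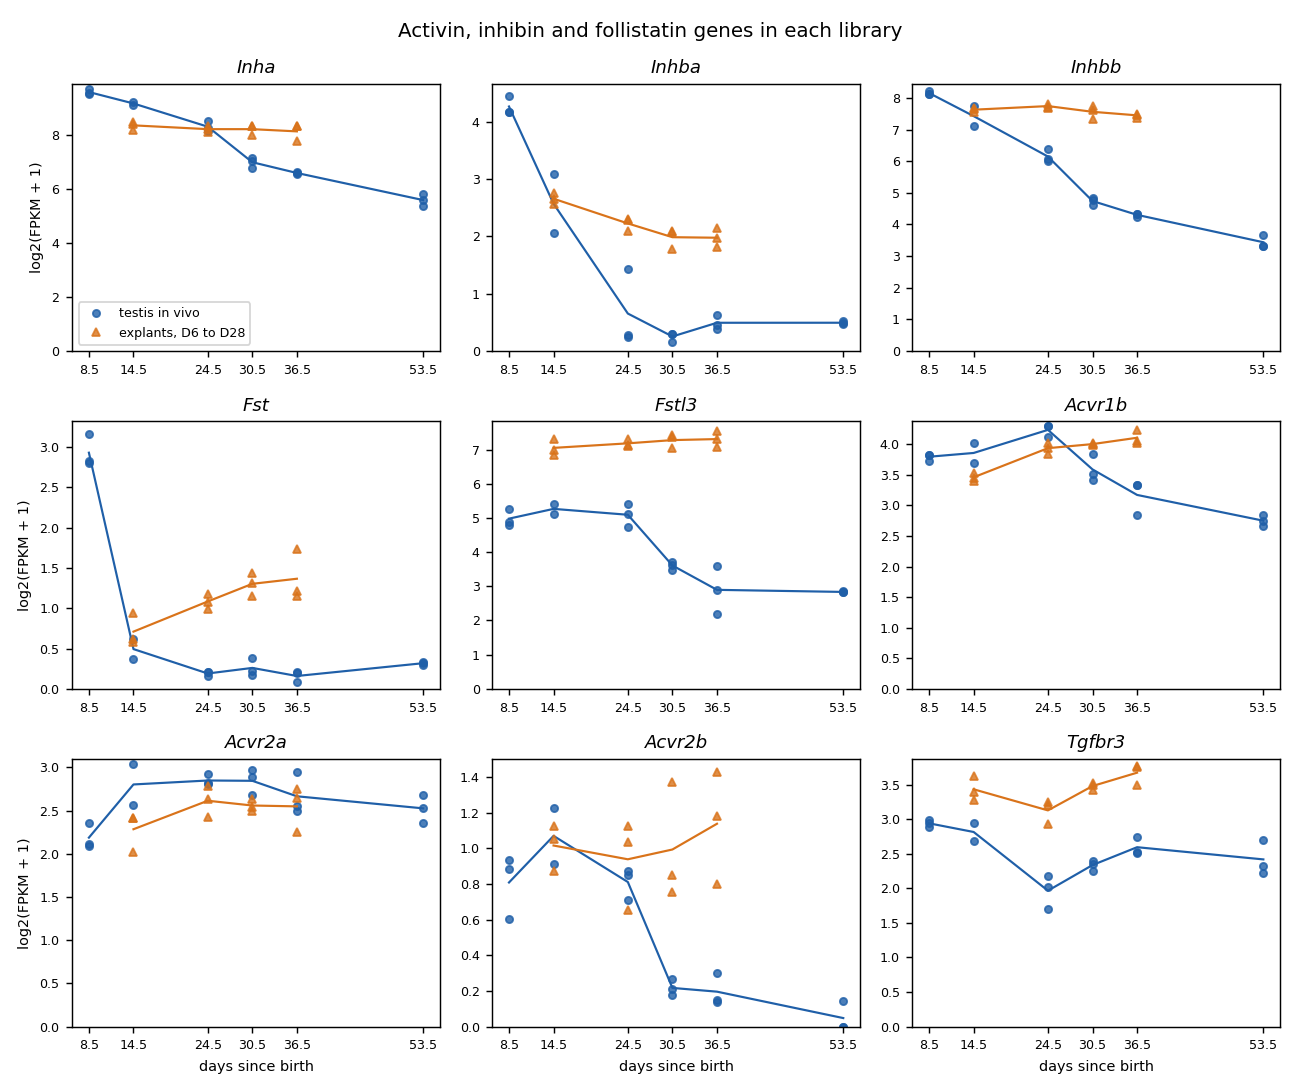
Level of each of the 9 genes, as log2(FPKM + 1), in each library against days since birth, with testes in vivo in blue circles and explants in orange triangles placed at the age of the testes they match, and lines through group means. Testis levels of Inha, Inhba, Inhbb and Fst drop with age, whereas explant levels of Inha, Inhbb and Fstl3 stay nearly level from D6 to D28, those of Fstl3 above every testis library.

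The culture was then compared with the tissue it started from. At D6, Inha, Inhba and Fst were called lower than at 8.5 dpp and Fstl3 higher, 4 of 9 genes beside 16.1% of all genes tested. The same 4 genes were called in the same directions at D28 against 8.5 dpp, beside 24.0% of all genes, with the same 8.5 dpp libraries on the other side. Within culture, between D6 and D28, Fst alone was called, beside 5.91% of all genes.

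Inha measured 333, 288 and 354 FPKM at D6, 270, 298 and 315 at D16, 252, 315 and 319 at D22, and 315, 215 and 315 at D28. All 12 cultured libraries lay below the lowest 8.5 and 14.5 dpp libraries, and the 4 culture times overlapped one another. The difference from 8.5 dpp was -1.23 at D6 (SE 0.15, limma adjusted p = 1.87e-05) and -1.45 at D28 (SE 0.15, limma adjusted p = 2.31e-06). Between D6 and D28 it was -0.22 (SE 0.15, limma adjusted p = 0.291).

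Inhbb measured 202, 201 and 187 FPKM at D6, 205, 210 and 224 at D16, 160, 213 and 194 at D22, and 165, 176 and 180 at D28. These lie below the 8.5 dpp libraries and around those of 14.5 dpp. The difference from 8.5 dpp was -0.53 at D6 (SE 0.09, limma adjusted p = 0.000499) and -0.70 at D28 (SE 0.09, limma adjusted p = 2.75e-05), short of a 2-fold change in either.

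Inhba measured 4.91, 5.25 and 5.77 FPKM at D6, 3.88, 3.91 and 3.26 at D16, 2.45, 3.29 and 3.19 at D22, and 3.43, 2.52 and 2.90 at D28. It was 3.43-fold lower at D6 than at 8.5 dpp (log2 difference -1.60, SE 0.12, limma adjusted p = 3.27e-07). The D28 libraries all lay below the D6 libraries (log2 difference -0.68, SE 0.12, limma adjusted p = 0.00108), with a ratio of medians under 2.

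Fst had the opposite course within culture. It measured 0.918, 0.493 and 0.530 FPKM at D6, 1.12, 1.26 and 0.991 at D16, 1.48, 1.72 and 1.23 at D22, and 1.22, 2.33 and 1.32 at D28. Fst was 10.3-fold lower at D6 than at 8.5 dpp (log2 difference -2.22, SE 0.16, limma adjusted p = 2.59e-07) and higher at D28 than at D6 (0.66, SE 0.16, limma adjusted p = 0.00859), with no overlap between those 2 culture times. This last call ended when D6 and D28 were fitted alone, and when the second or the third D6 library was left out. With the depth unknown, the counting error of these low levels cannot be given.

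Fstl3 was the only member called higher in culture than at 8.5 dpp. It measured 126, 113 and 159 FPKM at D6, 137, 157 and 139 at D16, 164, 130 and 171 at D22, and 187, 133 and 156 at D28. The lowest cultured library, at 113 FPKM, stood above the highest in vivo library of any age, at 41.8 FPKM. The difference from 8.5 dpp was 2.07 at D6 (SE 0.17, limma adjusted p = 6.73e-07), a 4.30-fold higher mean, and 2.33 at D28 (SE 0.17, limma adjusted p = 9.83e-08). Between D6 and D28 it was 0.26 (SE 0.17, limma adjusted p = 0.281). Fstl3 is among the genes the study selected on these same samples for a difference between explants and 14.5 dpp testes, so its direction is not independent evidence.

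Among the receptors, Acvr1b was lower at D6 than at 8.5 dpp (-0.33, SE 0.08, limma adjusted p = 0.00338) and higher at D28 (0.31, SE 0.08, limma adjusted p = 0.00384), both under 2-fold. Its values were 9.57, 10.6 and 9.88 FPKM at D6 and 17.9, 15.7 and 15.2 at D28, and the difference between them was 0.64 (SE 0.08, limma adjusted p = 9.28e-05). Tgfbr3 measured 8.71, 9.54 and 11.3 FPKM at D6 and 12.6, 10.3 and 12.5 at D28, all above its 8.5 dpp libraries of 6.67, 6.40 and 6.97 (D28 against 8.5 dpp 0.73, SE 0.11, limma adjusted p = 7.72e-05). Acvr2a lay between 3.07 and 5.87 FPKM and Acvr2b between 0.573 and 1.69 FPKM in all 12 cultured libraries. Against 8.5 dpp, Acvr2a differed by 0.10 at D6 and by 0.36 at D28 (SE 0.15 each, limma adjusted p = 0.611 and 0.0476), and Acvr2b by 0.21 and 0.33 (SE 0.19 each, limma adjusted p = 0.395 and 0.155). Between D6 and D28 Inhbb differed by -0.18, Acvr2a by 0.26, Acvr2b by 0.12 and Tgfbr3 by 0.24, and none of these passed the test (limma adjusted p from 0.13 to 0.683).

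The study's own reference for the explants was the 14.5 dpp testis. At D16 and at D22, Fst and Fstl3 were called higher than at 14.5 dpp and no member lower, beside 11.9% and 12.9% of the 11517 genes tested. At D28, Fst, Fstl3 and Tgfbr3 were called higher and none lower, beside 7.64% of genes called higher, 6.00% called lower and 13.6% called in all. At D6, Fstl3 alone was called, beside 7.94% of genes. Acvr1b (-0.39), Acvr2a (-0.52) and Acvr2b (-0.05) did not pass at D6, nor did Inhba (0.09), Inhbb (0.20) and Fst (0.22). Tgfbr3 passed the test at D6 (0.62, SE 0.16, limma adjusted p = 0.0481) with a ratio of medians of 1.57. It no longer passed after any single library of either group was left out. The same held with a pseudocount of 0.1 (limma adjusted p = 0.0623) and with the replicate number as a block (0.52, adjusted p = 0.156). The median log2 difference at D28 was 0.07 over the 9 genes and -0.08 over all genes.

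Fstl3 was 3.53-fold higher at D6 than at 14.5 dpp (log2 difference 1.78, SE 0.19, limma adjusted p = 0.00452) and 4.22-fold higher at D28 (2.04, SE 0.17, adjusted p of limma's F test = 0.000138). Fst was 3.93-fold higher at D28 (0.87, SE 0.17, adjusted p of limma's F test = 0.0141), and in this fit it passed the filter on low values only through the cultured groups. At D16 the Fst call (0.59, SE 0.17) ended without the second 14.5 dpp library, where the difference was 0.47. Without the first or the second D16 library the number of called members did not fall. There limma's test of this contrast alone, which makes no calls here, did not pass for Fst (adjusted p = 0.0638 and 0.0776). Tgfbr3 was 1.94-fold higher by the mean and 2.06-fold by the median at D28 (0.86, SE 0.13, adjusted p of limma's F test = 0.00343).

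Inha was lower than at 14.5 dpp at all 4 culture times without reaching the threshold on the ratio of medians. The log2 difference was -0.81 at D6 (SE 0.14, limma adjusted p = 0.0182), -0.95 at D16, -0.95 at D22 and -1.03 at D28 (SE 0.18 each, adjusted p of limma's F test = 0.0057), and no cultured library reached a 14.5 dpp library. The D6 difference did not pass the test without the second 14.5 dpp library (-0.755, limma adjusted p = 0.0711), without the first or the second D6 library (adjusted p = 0.0719 and 0.0581), or with the replicate number as a block (-0.87, adjusted p = 0.071). Inhbb did not pass at D28 (0.02, SE 0.17, adjusted p of limma's F test = 0.352), and neither did Inhba (-0.59, SE 0.25, adjusted p of limma's F test = 0.215), whose 14.5 dpp libraries differed widely. Without the second 14.5 dpp library, which had the lower Inhba level, the Inhba difference at D28 was -1.10. Acvr1b, Acvr2a and Acvr2b did not pass in the D16, D22 and D28 comparisons, with differences between -0.25 and 0.25. The Sertoli cell genes Sox9, Wt1 and Gata4 had nearly equal mean levels in these groups (6.82 on the log2(FPKM + 1) scale at 14.5 dpp and 6.82 at D28), and the values above were within 0.1 of those on the Sertoli scale.

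**Figure D2:**
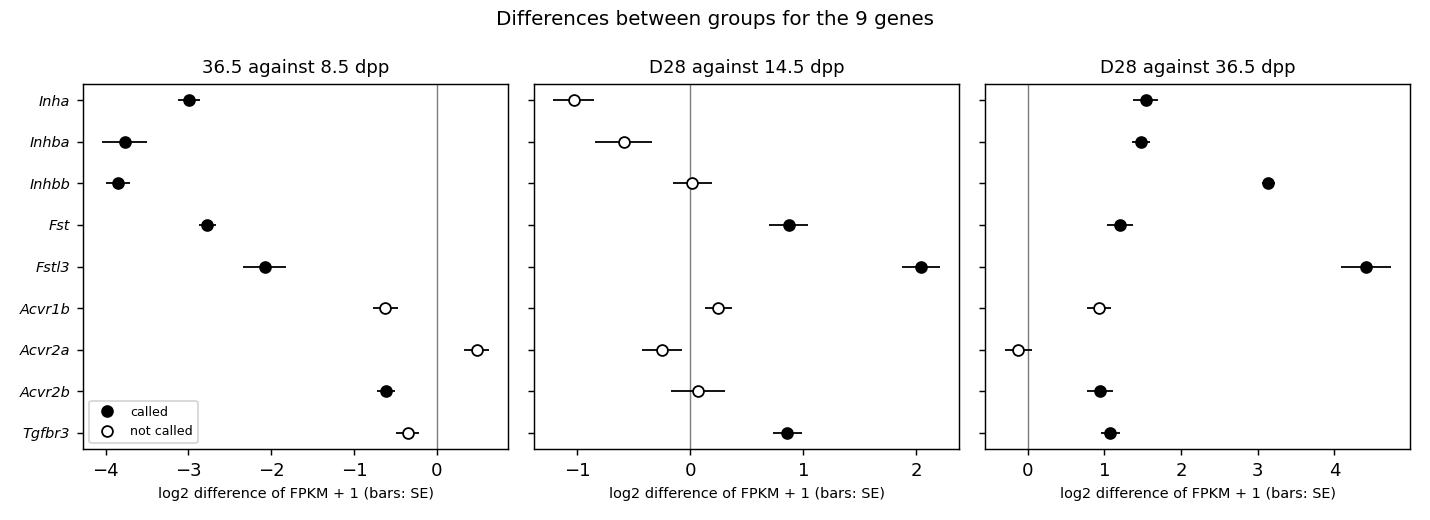
Log2 difference of FPKM + 1 for each of the 9 genes in 3 comparisons, with bars of 1 standard error from limma, filled circles for genes called and open circles for genes not called. Inha lies at -1.03 and Fstl3 at 2.04 in D28 against 14.5 dpp, while 7 genes are called higher in D28 against 36.5 dpp.

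Against testes of the same age since birth, 5 members were called higher in culture at D16 and 7 at D22 and at D28. The called members were Inhba, Inhbb, Fst, Fstl3 and Tgfbr3 at D16 against 24.5 dpp (beside 43.6% of all genes), and these 5 with Inha and Acvr2b at D22 against 30.5 dpp (beside 65.0%) and at D28 against 36.5 dpp (beside 70.3%, of which 46.7% of all genes were higher and 23.6% lower). Every called member was higher in the explants. The size of the difference itself varied between the 4 matched ages for 8 members by limma's F test of the interaction, beside 84.5% of all genes. The median log2 difference at D28 was 1.21 over the 9 genes and 0.64 over all genes, and the share of members called was near that of all genes. Inhba and Fst passed the filter only through the explants in these 3 comparisons, and Acvr2b did so in the later 2.

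At D28 against 36.5 dpp, Fstl3 was 22.5-fold higher (log2 difference 4.41, SE 0.33, limma adjusted p = 9.01e-06) and Inhbb 9.26-fold (3.14, SE 0.09, limma adjusted p = 9.24e-08). Inha was 2.97-fold higher (1.54, SE 0.16, limma adjusted p = 6.23e-05), although it had not passed the test at D16 against 24.5 dpp (-0.09, SE 0.12, limma adjusted p = 0.526). Below 2-fold, Acvr1b was lower at D16 than at 24.5 dpp (-0.30, SE 0.10, limma adjusted p = 0.0305) and higher at D22 than at 30.5 dpp (0.41, SE 0.13, limma adjusted p = 0.0206). Acvr2a was lower at D22 (-0.29, SE 0.11, limma adjusted p = 0.041), with no overlap between the groups, and did not pass at D16 (-0.23, adjusted p = 0.104). These 3 differences that passed no longer did so after some single libraries were left out, among them the first D16 library for Acvr1b (-0.246, adjusted p = 0.106) and any D22 library for Acvr2a. Acvr2b did not pass at D16 (0.13, SE 0.14, limma adjusted p = 0.442). Acvr2a did not pass at D28 (-0.12, SE 0.18, limma adjusted p = 0.554), and Acvr1b passed the test (0.93, SE 0.16, limma adjusted p = 0.000853) with a ratio of medians of 1.73.

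The cell make-up of the compared tissues differed in the same comparisons. At D28 the 5 spermatid markers summed to 7.47 FPKM, with Acrv1, Tnp1 and Prm1 at 0, against 3670 at 36.5 dpp. The Sertoli scale genes were 3.36 higher at D28 than at 36.5 dpp on the log2 scale. On the Sertoli scale the difference of Inhbb at D28 was -0.22 (SE 0.11, limma adjusted p = 0.0834), that of Inha turned to -1.83 (SE 0.19, limma adjusted p = 2.32e-05), and that of Fstl3 was 1.04 (SE 0.37, limma adjusted p = 0.0238). The same order was seen at D16, with -0.05, -1.74 and 0.45, and at D22, with -0.25, -1.85 and 0.59 for Inhbb, Inha and Fstl3. Inha passed the test in all 3 of these comparisons and so did Fstl3, while Inhbb passed in none. This scale moves the median over all genes at D28 from 0.64 to -2.72.

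**Figure D3:**
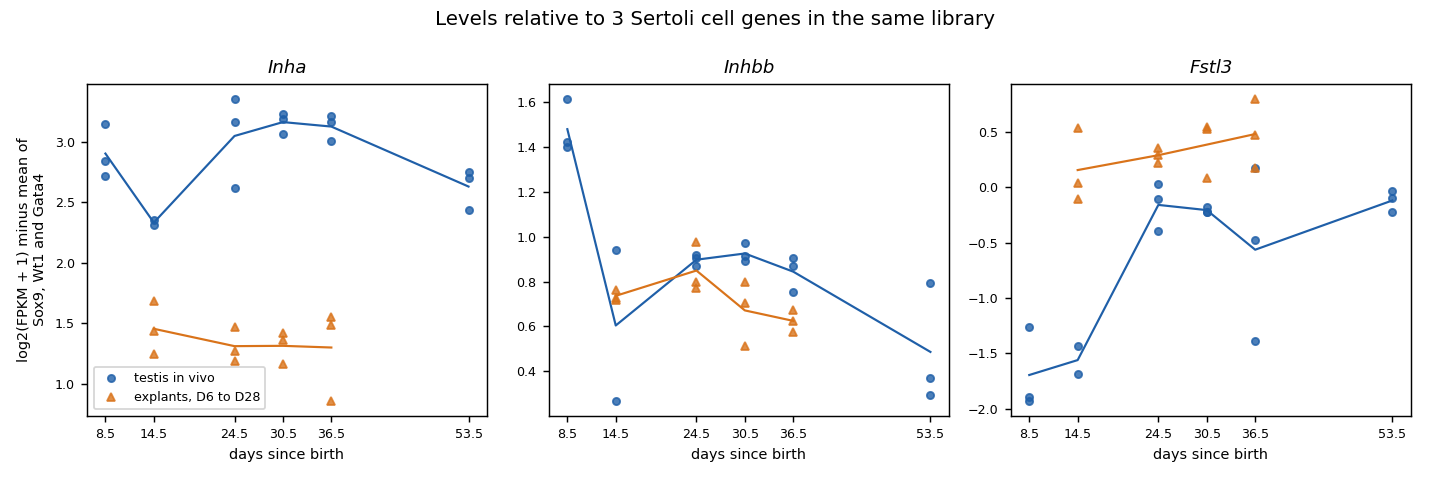
Level of Inha, Inhbb and Fstl3 in each library relative to the mean of Sox9, Wt1 and Gata4, on the log2(FPKM + 1) scale, against days since birth, with lines through group means. Explants (orange triangles) lie below all testes (blue circles) for Inha, between 0.86 and 1.68, and among them for Inhbb.

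Ratios between members of the same library do not depend on how much RNA comes from cells that express none of them, and 3 such ratios were compared over the 4 matched ages with a two-sided exact permutation test within ages. The ratio of Inha to the sum of Inhba and Inhbb, α transcripts to β transcripts, was 2.32, 2.56 and 2.70 at 8.5 dpp, 2.5 and 4.17 at 14.5 dpp, and 5.46, 4.83 and 3.32 at 24.5 dpp. It was 5.19, 4.54 and 4.75 at 30.5 dpp, 4.80, 5.03 and 5.03 at 36.5 dpp, and 3.84, 4.35 and 5.71 at 53.5 dpp. In culture it was 1.61, 1.39 and 1.84 at D6, 1.29, 1.39 and 1.39 at D16, 1.55, 1.45 and 1.62 at D22, and 1.87, 1.2 and 1.73 at D28. The highest explant, at 1.87, thus lay below the lowest testis of any age, at 2.32.

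The mean log2 difference between explants and age-matched testes in this ratio was -1.51, a 2.84-fold lower ratio (exact permutation p = 1.25e-05, the smallest that 80000 arrangements can give, and 1.88e-05 after adjustment over the 3 ratios). Within the 4 matched ages it was -1.01, -1.71, -1.65 and -1.66, in order of age. The summed level of the 6 Leydig cell markers ranged from 66.3 to 595 FPKM in the testes of these ages and from 12.7 to 36.8 in the explants. Among testes the mean sum was 271 FPKM at 8.5 dpp, 225 at 14.5 dpp, 339 at 24.5 dpp, 491 at 30.5 dpp, 283 at 36.5 dpp and 170 at 53.5 dpp. The mean ratios at these ages were 2.53, 3.34, 4.54, 4.83, 4.96 and 4.63, in order of age. Cyp17a1 was at 0.472 FPKM at D28 against 84.3 at 36.5 dpp, and Cyp11a1, Hsd3b1 and Insl3 were also lower. Star (2.51 against 2.70 FPKM) and Lhcgr (2.21 against 2.91) differed little. Leydig cells also transcribe Inha, and the part of the Leydig cell markers in the lower ratio was not tested.

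The ratio of both binder transcripts to both β transcripts rose in culture by the same test. It was 0.155 and 0.297 at 14.5 dpp, 0.394, 0.539 and 0.494 at 24.5 dpp, 0.461, 0.441 and 0.420 at 30.5 dpp, and 0.188, 0.576 and 0.358 at 36.5 dpp. It was 0.614, 0.547 and 0.829 at D6, 0.661, 0.741 and 0.618 at D16, 1.02, 0.609 and 0.874 at D22, and 1.12, 0.758 and 0.861 at D28. At each matched age the explants lay above the testes with no overlap, whereas the 53.5 dpp testes, at 0.528, 0.685 and 0.665, overlapped them. The mean log2 difference was 1.10, a 2.15-fold higher ratio (exact permutation p = 1.25e-05, again the smallest possible, adjusted p = 1.88e-05), and nearly all of the binder transcripts were Fstl3. Since the study selected Fstl3 on these same samples, the direction of this ratio is not independent evidence either. The ratio of Inhbb to Inhba did not pass the test (-0.56, exact permutation p = 0.0897, adjusted p = 0.0897).

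**Figure D4:**
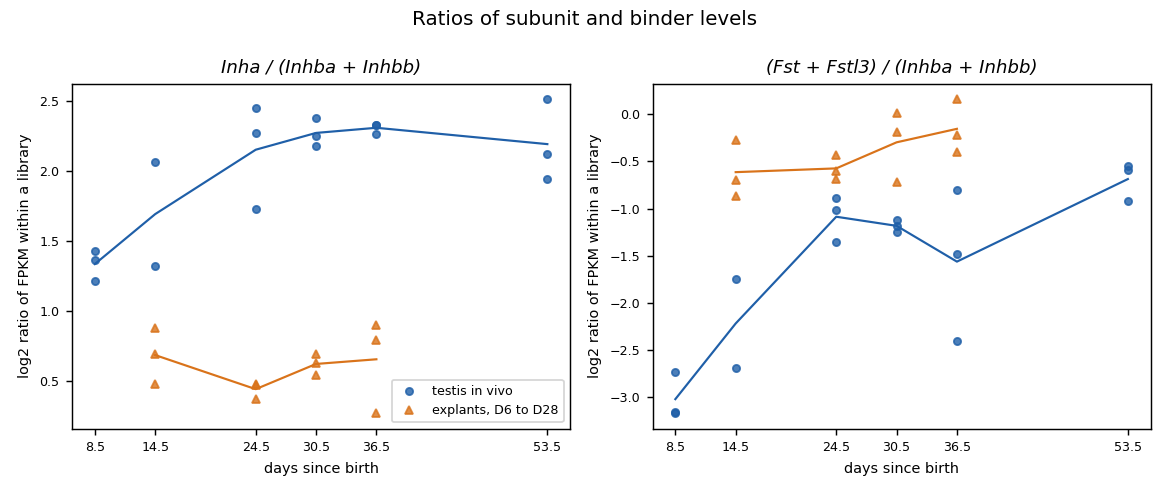
Log2 of the ratio of Inha to Inhba plus Inhbb (left) and of Fst plus Fstl3 to Inhba plus Inhbb (right) in each library against days since birth, from FPKM, with lines through group means. The explants (orange triangles) lie below every testis on the left, at ratios of 1.2 to 1.87, and above the testes of their age on the right.

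Markers of other cells also differed between explants and testes. Endothelial markers summed to between 58.2 and 71.0 FPKM in the 4 culture groups and to 45.0 FPKM at 8.5 dpp, 27.8 at 14.5 dpp and 4.12 at 36.5 dpp, and macrophage markers to between 27.0 and 35.9 FPKM in culture and between 15.5 and 21.3 FPKM in vivo. Of the macrophage markers, Cd68, Cd14 and Csf1r were higher at D28 than at 36.5 dpp, whereas Mrc1 (8.92 against 13.3 FPKM) and Adgre1 (0.745 against 3.92) were lower. Peritubular markers summed to 267 FPKM at D6 and 121 at D28, above the 65.1 of 36.5 dpp but below the 715 of 8.5 dpp and the 416 of 14.5 dpp. Fstl3 and Tgfbr3 are also expressed outside the Sertoli cell, and the part of these markers in their higher level was not tested.

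The wider pathway was read in the same comparisons. Of 63 listed ligands, binders, receptors, transducers and targets of the TGFβ family, 60 were in the data. From 8.5 to 36.5 dpp, 40 of the 53 tested fell, 4 rose and 9 were not called, beside 43.4% of all genes called lower and 25.3% higher, with a median log2 difference of -1.50 beside -0.50 over all genes. Some of the called genes lay under the level of the filter on low values at 36.5 dpp, and others at 8.5 dpp. The part of the filter in these counts was not tested. Large falls were those of the TGFβ-binding proteoglycan Dcn (from 214 ± 16.2 to 9.06 ± 3.18 FPKM, log2 difference -4.47), the follistatin-related Fstl1 (-4.26) and Amh, the Sertoli cell hormone of Müllerian duct regression (from 95.2 ± 27.4 to 4.24 ± 0.671 FPKM, -4.17), all SD with n = 3. Their limma adjusted p ranged from 1.98e-11 to 1.8e-08.

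At D28 against 14.5 dpp, 8 of 50 tested pathway genes rose, 4 fell and 38 were not called, beside 7.64% of all genes called higher and 6.00% lower, with a median of 0.02 beside -0.08. Igsf1, a membrane protein once proposed as an inhibin co-receptor, rose from 14.6 ± 5.33 (SD, n = 2) to 84.4 ± 12.0 FPKM (SD, n = 3; log2 difference 2.48, SE 0.20, adjusted p of limma's F test = 0.000152). Id3, a target of BMP signalling, rose from 13.9 ± 5.58 to 59.6 ± 19.8 FPKM (2.02, SE 0.26, adjusted p of limma's F test = 0.00141). Bmp4, a ligand, fell by 1.2 and Ltbp2, a member of the latent TGFβ-binding proteins, by 1.10 on the log2 scale. None of the 12 tested transducers and their regulators, SMADs included, was called.

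At D28 against 36.5 dpp, 41 of 53 pathway genes were higher, 4 lower and 8 not called, beside 46.7% of all genes called higher and 23.6% lower, with a median of 1.77 beside 0.64 over all genes. Some of the called genes, higher or lower, passed the filter on low values only through the group where they were high. For these the filter leaves a single direction open, and its part in the counts was not tested. Large differences were those of Dcn (4.48), Id3 (4.19) and Fshr, the FSH receptor of the Sertoli cell (15.7 ± 2.06 against 1.04 ± 0.160 FPKM, SD, n = 3, log2 difference 3.03, SE 0.13, limma adjusted p = 5.12e-07).

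Over the 10 group means of log2(FPKM + 1), the genes with the profile most like Inhbb, among 12762, were Lbh, Csdc2 and Pyurf (Pearson r 0.9982, 0.998 and 0.9979). Those most like Inha were Tatdn3, Gins3 and Rpa2 (0.9948, 0.9943 and 0.9931), and those most like Inhba were Nrsn2, Mid1 and Kcnmb1 (0.9942, 0.9922 and 0.9922). Fst was followed less closely, by Angptl8, Klk13 and Krt18 (0.9795, 0.9748 and 0.9646). These are descriptions over 10 groups that share libraries and a common trend with age.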

How the data were processed

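Poly(A) RNA of rat testes and explants was sequenced as stranded 50-base single reads. Per the labels and the study's methods, the authors aligned reads to rn6 with STAR 2.5.2a, quantified RefSeq transcripts with StringTie and normalised them with Ballgown; the deposited table holds FPKM, which the authors call RPKM, and no counts, so depth is unknown. Of 30 libraries, 1 labelled an outlier is listed at 0 throughout and was left out. Sample titles give ages as dpc, whereas the age labels give days after birth, used here.

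FPKM were analysed as log2(FPKM + 1) with limma 3.58.1 in R 4.3.3, so fold changes of low genes are understated on that scale. Genes were tested in a fit where some group's median reached 0.5 FPKM, and p-values adjusted by Benjamini-Hochberg. The study's rule was followed for calls: an adjusted p no higher than 0.05 together with group medians that differ 2-fold or more. The 6 ages were fitted together, as were 8.5 dpp with the 4 culture times, and 14.5 dpp with D16, D22 and D28, where calls use the F test. Age-matched groups were fitted in pairs. p-values measure the spread between these samples. Ratios were tested by exact permutation within matched ages in Python 3.11.15 with scipy 1.17.1. Fits and ratio tests were checked on simulated data.

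Alternatives were a pseudocount of 0.1, no filter, quantile normalization, a prior variance with a trend, no fold threshold, fits of other group sets, a replicate block, leaving out each library, and the Sertoli scale. The members, the 63 pathway genes and the 47 markers (46 matched) were chosen with earlier results of these data known. The rule was to name all 9 members, though between neighbouring ages the text names those called or past the test only, and from the pathway list the 4 called genes with the largest difference in each of 3 comparisons, except 1 gene that is not reported here. Likeness lists hold the 3 genes with the highest correlation.

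Replicate numbers are shared between groups, but in none of 45 group pairs did all same-numbered libraries correlate over 0.1 (range -0.142 to 0.218), so the main tests did not pair samples by number. The check asked for 3 same-numbered pairs of libraries, and group pairs with 14.5 dpp had 2, so they could not meet it. It cannot exclude animals or batches shared between same-numbered libraries.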

Additional observations from a re-analysis of the deposited data

Results flagged for a closer look

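The difference between explants and age-matched testes itself differed between the 4 matched ages for 8 of the 9 genes, by limma's F test of the interaction. This was so for 84.5% of the 12623 genes tested, so it is no mark of these genes. The adjusted p was 7.6e-10 for Inhbb, 2.36e-08 for Inha, 4.75e-06 for Fstl3, 9.44e-06 for Acvr1b, 0.00113 for Fst, 0.00211 for Acvr2b, 0.00218 for Inhba and 0.0481 for Tgfbr3. Acvr2a did not pass (adjusted p = 0.445).

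For Inha the difference ran from -0.81 at D6 through -0.09 at D16 to 1.23 at D22 and 1.54 at D28, so it changed sign, with explants nearly constant and testes falling. For Inhbb it ran from 0.20 through 1.60 and 2.82 to 3.14, and for Fstl3 from 1.78 through 2.09 and 3.67 to 4.41. The Sertoli scale genes Sox9, Wt1 and Gata4 differed by 0.07, 1.64, 3.08 and 3.36 in the same comparisons. Tgfbr3 differed by 0.62, 1.16, 1.15 and 1.08. With 1 library left out at a time, between 6 and 8 members passed.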

How the results depend on the processing

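The numbers of called members changed most often without the fold threshold, and in some comparisons when 1 library was left out. Without the fold threshold, 5 members were called at 14.5 against 8.5 dpp, 5 at 24.5 against 14.5 dpp, 3 at 36.5 against 30.5 dpp, 4 at D16 and 4 at D22 against 14.5 dpp, 3 at D6 against 14.5 dpp, 7 at D6 and 8 at D28 against 8.5 dpp, and 3 at D28 against D6. Quantile normalization left 0 at 53.5 against 36.5 dpp, and turned the difference of Tgfbr3 at 36.5 against 8.5 dpp to 0.15. The fit of D28 and D6 alone left 0. Leaving out 1 library gave 2 to 4 members at 14.5 against 8.5 dpp (4 without the first 14.5 dpp library), 0 to 1 at 36.5 against 30.5 dpp (1 without the second 36.5 dpp library), 0 to 2 at 53.5 against 36.5 dpp (lower without the second 36.5 dpp library or either the second or the third 53.5 dpp library), 1 to 3 at D16 against 14.5 dpp (1 without the second 14.5 dpp library) and 0 to 1 at D28 against D6 (0 without the second or the third D6 library). The ratio of Inha to β transcripts stayed between -1.61 and -1.33 and that of binders to β transcripts between 0.79 and 1.44 without each replicate number. The cause of these changes was not tested.

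The replicate block moved no count of called members by over 1.5 times (for example 3 at D28 against 14.5 dpp and 7 at D28 against 36.5 dpp with the block as without it), and of 144 member differences 133 kept their direction and side of the threshold. Quantile normalization kept 119 and the pseudocount of 0.1 kept 140. Quantile normalization moved the median of all genes by more than 0.1 at 30.5 against 24.5 dpp (0.11), 53.5 against 36.5 dpp (0.21), 36.5 against 8.5 dpp (0.18), D22 against 30.5 dpp (-0.16) and D28 against 36.5 dpp (-0.22).

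On the Sertoli scale 38 member differences reversed, by its own construction, since Sox9, Wt1 and Gata4 fall with age in vivo. At 24.5 against 14.5 dpp they became 0.72 (Inha), 0.29 (Inhbb), 1.27 (Fst), 1.40 (Fstl3), 1.31 (Acvr2b) and 0.72 (Tgfbr3). At 30.5 against 24.5 dpp they became 0.12 (Inha), 1.03 (Inhba), 0.028 (Inhbb), 0.79 (Acvr1b), 1.43 (Acvr2a) and 0.84 (Acvr2b), and at 53.5 against 36.5 dpp 0.085 (Acvr1b). At 36.5 against 8.5 dpp they became 0.22 (Inha), 0.44 (Fst), 1.13 (Fstl3), 2.59 (Acvr1b), 2.60 (Acvr2b) and 2.87 (Tgfbr3). At D16 against 24.5 dpp they became -0.075 (Inhba), -0.048 (Inhbb), -0.75 (Fst), -1.52 (Acvr2b) and -0.48 (Tgfbr3). At D22 against 30.5 dpp they became -1.85 (Inha), -1.35 (Inhba), -0.25 (Inhbb), -2.03 (Fst), -2.66 (Acvr1b), -2.30 (Acvr2b) and -1.93 (Tgfbr3). At D28 against 36.5 dpp they became -1.83 (Inha), -1.88 (Inhba), -0.22 (Inhbb), -2.16 (Fst), -2.43 (Acvr1b), -2.42 (Acvr2b) and -2.29 (Tgfbr3). For Inhba, Fst and Acvr2b, near or under 1 FPKM in one group, these values follow from the pseudocount and the scale. Depth limits the low members most, and without counts no interval for it can be given.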
